A study of Homo sapiens with 9 samples.

Results

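Stem and progenitor genes were followed through 9 RNA-seq libraries of SET2, a JAK2 mutant megakaryoblastic cell line from an acute myeloid leukemia that arose after a myeloproliferative neoplasm. The group holds 10 genes chosen by symbol from a table of 60662 genes: the surface genes CD34, KIT, PROM1, CD38 and FLT3 and the transcription factor genes MEIS1, HLF, MECOM, SOX4 and HHEX. All SET2 cells were untreated and grown in RPMI with fetal calf serum. WT cells were set against a pair of DYRK1A KO lines, clone 11H1 and clone 14B5, with 3 libraries for each of these groups; either clone was expanded from 1 sorted cell after nucleofection of Cas9 protein with a DYRK1A guide and kept because its indels were out of frame. The libraries of a clone share that founder cell, no clone of an unedited cell was among them, and no source used here says that replicates were separate cultures, so p values measure the spread between these libraries only and an effect of the knockout and a property of a clone cannot be told apart.

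Blood stem cells sit in the marrow as CD34+ cells that carry the receptor tyrosine kinase KIT, and they lose both as they mature along most lineages. CD38 marks the step from stem cell to progenitor, PROM1 (CD133) is a further surface glycoprotein of immature cells, and FLT3 is the receptor that accompanies lymphoid and granulocyte-monocyte priming. MECOM, MEIS1, HLF, SOX4 and HHEX are DNA-binding factors that keep stem and progenitor cells immature, and several of them are drivers of myeloid leukemia when overexpressed.

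Of the 10 genes, 6 (CD34, KIT, SOX4, HHEX, MECOM and MEIS1) were expressed and tested, and the other 4 were at or near 0 in every library and were not detectable as expressed genes at this depth, so the name of the group fits this line only in part. In clone 14B5 all 6 tested genes were lower than in WT, where 28.7% of all tested genes were called lower. In clone 11H1, 5 of 6 were lower, beside 32.8% of all tested genes, and MECOM was not past the threshold. CD34 moved most, to 37.0% of its WT mean in 11H1 and 17.8% in 14B5. In bulk RNA, fewer cells of a type and less RNA per cell cannot be told apart. Libraries held 32347779 to 60272245 expected counts, and 3 counts, taken as the floor, stood for 0.0502 to 0.0913 CPM (counts per 1e6, on TMM-scaled library sizes). Mitochondrially encoded genes took 3.54% to 6.03% of the counts of WT libraries, with 7.23% to 7.39% for 11H1 and 3.30% to 3.92% for 14B5. With those genes left out, every call on the 6 genes was as before. DYRK1A mRNA itself was 204 ± 12.8 CPM (SD, n = 3) in WT, 190 ± 1.82 in 11H1 and 183 ± 8.74 in 14B5, a log2FC of −0.09 (edgeR, adjusted p = 0.131) and −0.17 (adjusted p = 0.0278), and its level says nothing about the reading frame.

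Sequence upstream of KIT, MEIS1 and MECOM is shown because they differed between the clones, KIT being lower in 11H1 and MEIS1 and MECOM lower in 14B5, and their windows hold 200 bases or more outside exons. RefSeq (GRCh38.p14) gives the 250 bases before each of its gene starts, and all 10 genes matched. RefSeq and GENCODE starts differ, and the windows of CD34 and SOX4, which also differed between the clones, lie wholly inside exons of the GENCODE gene bodies given below, so they were searched but are not printed. For KIT the 211 bases before its first GENCODE exon are given. The MEIS1 window lies inside the GENCODE gene body but in no exon, and for MECOM the window of the farthest start is given. Each sequence runs 5′ to 3′ on the gene's own strand, and capitals mark matches to any of 5 motifs searched on both strands. The STAT core, downstream of JAK2, was searched as TTCNNNGAA. The cell cycle homology element of the DREAM complex, whose assembly DYRK1A promotes, was searched as TTTGAA. The motif of GATA factors was taken as AGATAA and that of ETS factors as CCGGAA. The E-box of TAL1 and other basic helix-loop-helix factors was searched as CANNTG.
KIT (chr4:54657707-54657917, plus strand): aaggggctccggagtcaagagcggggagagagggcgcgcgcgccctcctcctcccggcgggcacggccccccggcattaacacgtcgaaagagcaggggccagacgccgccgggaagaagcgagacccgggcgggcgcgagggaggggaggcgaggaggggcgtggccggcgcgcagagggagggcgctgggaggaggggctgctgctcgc
MEIS1 (chr2:66434875-66435124, plus strand): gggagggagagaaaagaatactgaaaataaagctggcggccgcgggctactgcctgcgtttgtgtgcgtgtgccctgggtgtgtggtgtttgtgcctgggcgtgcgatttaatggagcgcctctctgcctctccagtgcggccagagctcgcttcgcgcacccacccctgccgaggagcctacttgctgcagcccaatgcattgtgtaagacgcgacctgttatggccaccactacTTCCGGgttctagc
MECOM (chr3:169663713-169663962, minus strand): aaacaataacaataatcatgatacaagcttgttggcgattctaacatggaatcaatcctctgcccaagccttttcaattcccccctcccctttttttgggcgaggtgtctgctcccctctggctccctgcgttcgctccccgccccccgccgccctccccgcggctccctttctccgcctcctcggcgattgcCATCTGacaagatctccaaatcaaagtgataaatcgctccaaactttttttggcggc
MEIS1 held 1 ETS match, at position −14 from the RefSeq start, in reverse complement, and the printed MECOM window held 1 E-box, at position −57. CD34 held 1 E-box, at position −238, and SOX4 held 2, at positions −221 and −63. None of these matches overlapped. KIT and HHEX held no match to any of the 5, with GC contents of 76.4% and 81.2% against a median of 58% over 35114 promoter windows. MECOM has 3 RefSeq starts, the farthest pair 517.2 kb apart, and the window nearest the 3′ end of the gene held a STAT and a GATA match. Over all windows 6.57% held the STAT core, 13.3% the cell cycle element, 9.17% the GATA motif, 14.5% the ETS motif and 61.8% an E-box. These matches describe letters, and factor binding was not measured.

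Positions of genes below are GRCh38 coordinates of the gene body. Levels can be compared between genes only per length, here CPM per kb of annotated exon. That length joins the exons of all annotated transcripts of a gene, 9219 bases for CD34 and 2525 for HHEX. The order of genes and their ranks below rest on this choice, and the lengths of the transcripts in use were not measured. In WT, KIT was the highest at 76.8 ± 8.32 CPM per kb (SD, n = 3), above 97.1% of 16873 ranked genes. HHEX followed at 35.6 ± 1.21, SOX4 at 33.3 ± 1.34 and CD34 at 29.4 ± 1.505. HHEX and SOX4 overlapped (34.3 to 36.7 and 32.4 to 34.8 CPM per kb), while SOX4 and CD34 did not, CD34 reaching 31.1. MECOM (1.78 ± 0.0610) and MEIS1 (0.831 ± 0.0236) stood below the median gene, at 3.60 CPM per kb. The order of the 6 means was the same in both clones. CD34 lay above 90.6% of ranked genes in WT, 74.2% in 11H1 and 57.8% in 14B5.

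CD34 (ENSG00000174059.16, chr1:207880972-207911402, minus strand), a sialomucin used to select stem and progenitor cells, was 259, 269 and 286 CPM in the WT libraries. In 11H1 it was 95.9, 98.2 and 107 CPM, and in 14B5 46.3, 50.01 and 48.8 CPM. The 3 groups did not overlap, WT being highest and 14B5 lowest. The log2FC was −1.43 (SE 0.05, edgeR, adjusted p = 1.51e-09) in 11H1 and −2.50 (SE 0.05, adjusted p = 9.88e-10) in 14B5, and 11H1 exceeded 14B5 by 1.06 (adjusted p = 2.12e-08).

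KIT (ENSG00000157404.15, chr4:54657918-54740715, plus strand), the receptor of stem cell factor, was 398, 403 and 481 CPM in WT, 231, 223 and 224 in 11H1, and 326, 315 and 288 in 14B5. Here the order of the clones was the opposite of that for CD34, with 11H1 lowest and no overlap between groups. The log2FC was −0.91 (SE 0.07, edgeR, adjusted p = 2.71e-07) in 11H1 and −0.48 (SE 0.08, adjusted p = 4.91e-04) in 14B5, and 11H1 minus 14B5 gave −0.45 (adjusted p = 1.12e-05). The ratio of KIT to CD34 CPM went from 1.501 to 1.68 in WT libraries to 2.10 to 2.41 in 11H1 and 5.91 to 7.04 in 14B5.

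**Figure D1:**
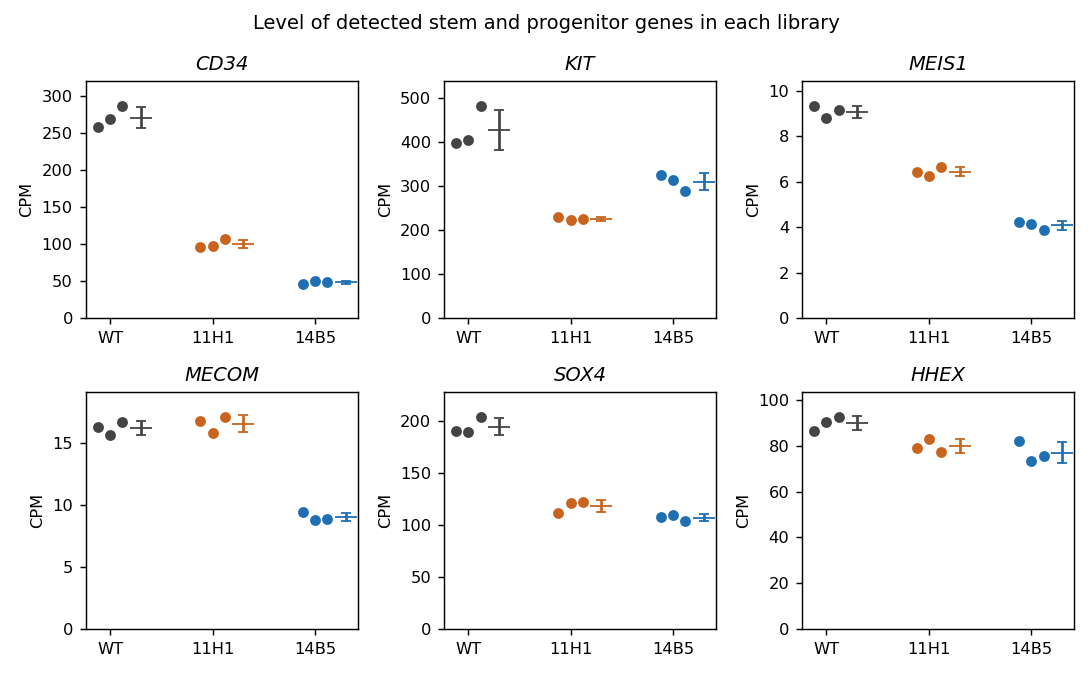
Level (CPM, linear axes from 0) of the 6 tested genes in each library, with points for libraries and the mean ± SD (n = 3) beside them. CD34 falls from WT (259 to 286 CPM) through 11H1 to 14B5 (46.3 to 50.01 CPM), KIT is lowest in 11H1, and MECOM is low in 14B5 while 11H1 overlaps WT.

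The remaining surface genes were not tested, since they failed the filter on low counts. CD38 (ENSG00000004468.13, chr4:15778275-15853230, plus strand), an ectoenzyme that consumes NAD, had 5, 2 and 1 counts in WT, 0 in each 11H1 library, and 1, 3 and 3 counts in 14B5. PROM1 (ENSG00000007062.11, chr4:15963076-16084378, minus strand) had 3 counts over all 9 libraries. FLT3 (ENSG00000122025.14, chr13:28003274-28100592, minus strand) had 4. At 3 counts or fewer nearly everywhere, no fold is given and no direction was detectable at this depth. When all genes with any counts were fitted, CD38 in 11H1 versus WT gave an edgeR adjusted p of 0.0366, which rests on 8 counts in WT against none, and none of the other comparisons of these genes passed. CD38 and PROM1 are neighbours on chromosome 4, and the genes that lie between them or overlap the end of PROM1 (HPRT1P1, FGFBP1 and FGFBP2) held at most 1 count in a library. On the other side of CD38 lies BST1 (CD157), its paralog, which was 0.735 ± 0.183 CPM in WT, 0.0507 ± 0.0633 in 11H1 and 0.1003 ± 0.01504 in 14B5 (edgeR, adjusted p = 6.82e-05 and 5.08e-05).

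Among the transcription factor genes, SOX4 (ENSG00000124766.6, chr6:21592768-21598619, plus strand), an HMG-box factor of progenitors, was 191, 190 and 204 CPM in WT, 111, 122 and 122 in 11H1, and 108, 109 and 104 in 14B5. Both clones lay below every WT library. The log2FC was −0.71 (SE 0.05, edgeR, adjusted p = 1.98e-07) in 11H1 and −0.88 (SE 0.05, adjusted p = 2.42e-07) in 14B5. Between the clones the difference was 0.15 (adjusted p = 0.0172), and that call was lost without 11H1 replicate 2 (adjusted p = 0.0787) or replicate 3 (adjusted p = 0.0917).

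MEIS1 (ENSG00000143995.20, chr2:66433452-66573869, plus strand), the homeodomain partner of HOXA9, was 9.31, 8.80 and 9.14 CPM in WT, 6.44, 6.24 and 6.66 in 11H1, and 4.22, 4.13 and 3.88 in 14B5. The groups were again in the order WT, 11H1, 14B5 with no overlap. The log2FC was −0.49 (SE 0.08, edgeR, adjusted p = 2.00e-04) and −1.17 (SE 0.08, adjusted p = 1.81e-06), and 11H1 exceeded 14B5 by 0.67 (adjusted p = 6.18e-05).

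MECOM (ENSG00000085276.18, chr3:169083499-169663618, minus strand), which encodes the zinc finger factors EVI1 and MDS1-EVI1, was 16.3, 15.7 and 16.8 CPM in WT and 16.8, 15.8 and 17.1 in 11H1, ranges that overlapped. In 14B5 it was 9.46, 8.81 and 8.89 CPM, below every other library. The log2FC in 14B5 was −0.86 (SE 0.07, edgeR, adjusted p = 3.25e-06). In 11H1 it was 0.04 (95% interval −0.10 to 0.18, adjusted p = 0.627), and 11H1 exceeded 14B5 by 0.88 (adjusted p = 3.72e-07). One gene-level count covers all MECOM starts, so the EVI1 and MDS1-EVI1 forms were not separated.

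HHEX (ENSG00000152804.11, chr10:92689951-92695646, plus strand), a homeodomain factor of early blood and endothelium, changed least: 86.6, 90.4 and 92.6 CPM in WT, 79.2, 83.1 and 77.2 in 11H1, and 82.1, 73.2 and 75.8 in 14B5. No library of either clone reached the lowest WT library, while the clones overlapped each other. The log2FC was −0.16 (SE 0.05, edgeR, adjusted p = 0.00958) in 11H1 and −0.24 (SE 0.05, adjusted p = 0.00429) in 14B5, and between clones 0.06 (95% interval −0.05 to 0.17, adjusted p = 0.342). The call in 11H1 was lost without 11H1 replicate 3 (adjusted p = 0.0511). HLF (ENSG00000108924.14, chr17:55265012-55325065, plus strand), a PAR-domain bZIP factor of the most immature stem cells, had 4 counts over the 9 libraries and was not tested.

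Read against the background, 5 of 6 lower in 11H1 stands beside 32.8% of 16675 tested genes called lower there, and 6 of 6 in 14B5 beside 28.7% of 16537. None of the 6 was higher, where 31.8% and 24.9% of tested genes were. All but MECOM were lower in both clones, as were 19.2% of 16339 genes tested in both, while 14.1% were higher in both. The median log2FC of the 6 genes was −0.60 in 11H1 and −0.87 in 14B5, against −0.01 over all genes in either comparison. Between 11H1 and 14B5, CD34, MEIS1, MECOM and SOX4 were higher in 11H1 and KIT was lower, 5 of 6 called beside 63.7% of all tested genes called in either direction.

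**Figure D2:**
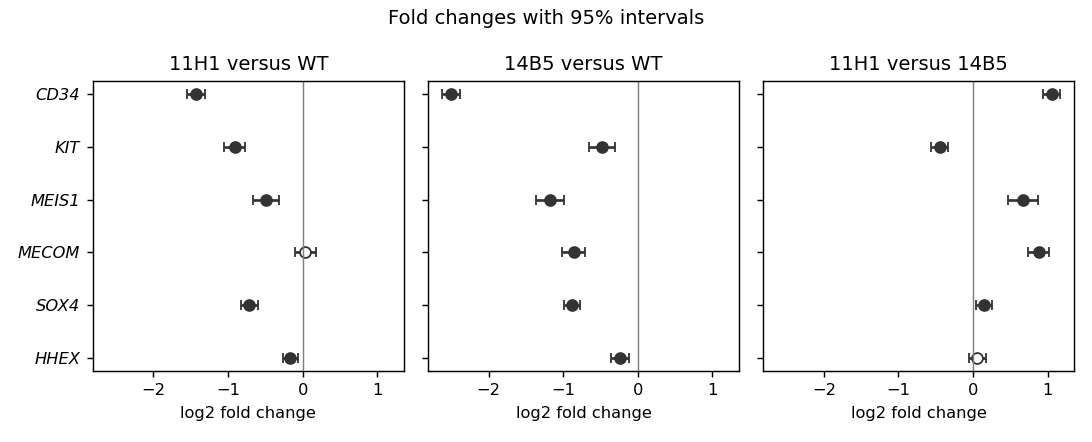
log2 fold change of the 6 tested genes with 95% intervals (bars) in each pairwise comparison; filled points have an edgeR adjusted p under 0.05. CD34 lies farthest from 0 in both clones, MECOM is at 0.04 in 11H1 and −0.86 in 14B5, and KIT is the only one of the 6 that is lower in 11H1 than in 14B5.

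With both clones pooled as 1 KO group (n = 6) against WT, 5 of 6 genes were lower beside 17.7% of 17080 tested genes. The log2FC was −1.87 for CD34 (edgeR, adjusted p = 7.01e-04), −0.79 for SOX4 (adjusted p = 1.53e-05), −0.79 for MEIS1 (adjusted p = 0.0108), −0.67 for KIT (adjusted p = 0.00504) and −0.20 for HHEX (adjusted p = 0.0246). The HHEX call was lost with a replicate block (adjusted p = 0.0764), with no filter (adjusted p = 0.0653) and without WT replicate 2 (adjusted p = 0.0984) or 3 (adjusted p = 0.0930). MECOM, at −0.35, was not called (adjusted p = 0.310). An edgeR fit that kept the clones as separate groups called the average of both clones minus WT at −0.41 (adjusted p = 2.03e-05). That average joins unlike clones, at 0.04 in 11H1 and −0.86 in 14B5 in the pairwise fits. Its error comes only from the spread between libraries within a group.

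The genes whose profile over the 9 libraries was most like that of a member were sought among 17079 other tested genes, by the root mean square distance of log2 CPM centred on WT. For CD34 they were CD93 (0.0874), CYTIP and IL21R, CD93 being a C-type lectin-like receptor of endothelium and immature blood cells that went from 19.02 ± 0.576 CPM in WT to 7.24 ± 0.481 in 11H1 and 3.42 ± 0.206 in 14B5. For KIT they were LCP1 (0.0440), the leukocyte actin-bundling protein, with CBR4 and DIPK2A. For MEIS1 they were the lncRNA AC010378.2 (0.0523), PPP1R13B and TIE1 (0.0616), an endothelial and stem cell receptor that went from 154 ± 4.73 CPM to 113 ± 0.547 and 69.6 ± 1.65. These are likenesses in 9 libraries of 3 cell populations only.

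Of 20 other surface genes of stem and immature leukemic cells, 16 were tested, and 13 were lower and 1 higher in 11H1, 12 lower and 1 higher in 14B5. Over all tested genes 32.8% were lower and 31.8% higher in 11H1, 28.7% and 24.9% in 14B5. The median log2FC of the 16 was −0.75 and −1.07, and 12 were lower in both clones, as were 19.2% of all genes. PROCR, the endothelial protein C receptor of long-term stem cells, was 2.904 ± 0.292 CPM in WT, 0.983 ± 0.183 in 11H1 and 0.4198 ± 0.0145 in 14B5. ROBO4, a guidance receptor of stem cells and endothelium, was 0.977 ± 0.176 CPM in WT and 0.577 ± 0.2195 in 11H1, and in 14B5 it was under the floor at 0 to 0.0348 CPM. CLEC12A, a leukemic stem cell lectin, was 0.912 ± 0.172 CPM in WT, 0.268 ± 0.0322 in 11H1 and 0.215 ± 0.0481 in 14B5. The genes not lower in both, all named after their values were seen, included ITGA6, higher in 11H1 (log2FC 0.68, edgeR, adjusted p = 1.30e-05). CD47 was higher in 14B5 (log2FC 0.28, adjusted p = 4.02e-04). ITGA6 in 14B5 and CD47 in 11H1 were not called (adjusted p = 0.0854 and 0.194). THY1 was not called in either clone (log2FC 0.01 and −0.38, adjusted p = 0.985 and 0.130). CD164, at 541 ± 32.4 CPM in WT, was lower in 11H1 (log2FC −0.59, adjusted p = 1.23e-06). In 14B5 CD164 was not called (log2FC 0.01, adjusted p = 0.892). TEK had no counts.

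Of 27 further stem cell factors, 23 were tested, 11 lower and 6 higher in 11H1 and 12 lower and 5 higher in 14B5, with medians of −0.13 and −0.24. The counts of higher genes are near the 31.8% and 24.9% of all tested genes called higher, while 32.8% and 28.7% were called lower. HMGA2, a chromatin protein of fetal stem cells, was 1.098 to 1.36 CPM in WT and under the floor in every KO library (edgeR, adjusted p = 3.86e-07 and 9.38e-07). CEBPA, the granulocytic factor, was 6.28 ± 1.27, 1.51 ± 0.172 and 2.15 ± 0.351 CPM in WT, 11H1 and 14B5, and HOPX was 0.5605 ± 0.105 CPM in WT and 0.146 ± 0.0223 in 11H1, with 0 to 0.0334 in 14B5. Lower in both were 9 and higher in both were 4: HOXA9 (log2FC 0.36 and 0.69), TAL1 (0.46 and 0.34), BCL11A (0.23 and 0.19) and GATA2 (0.15 and 0.13), these 4 named after their values were seen, beside 19.2% and 14.1% of all genes. HOXA9 was higher in the same libraries in which its partner MEIS1 was lower. LMO2, the bridge of the TAL1 complex, was higher in 11H1 (log2FC 0.17, edgeR, adjusted p = 0.0134) and lower in 14B5 (−0.27, adjusted p = 0.00131).

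**Figure D3:**
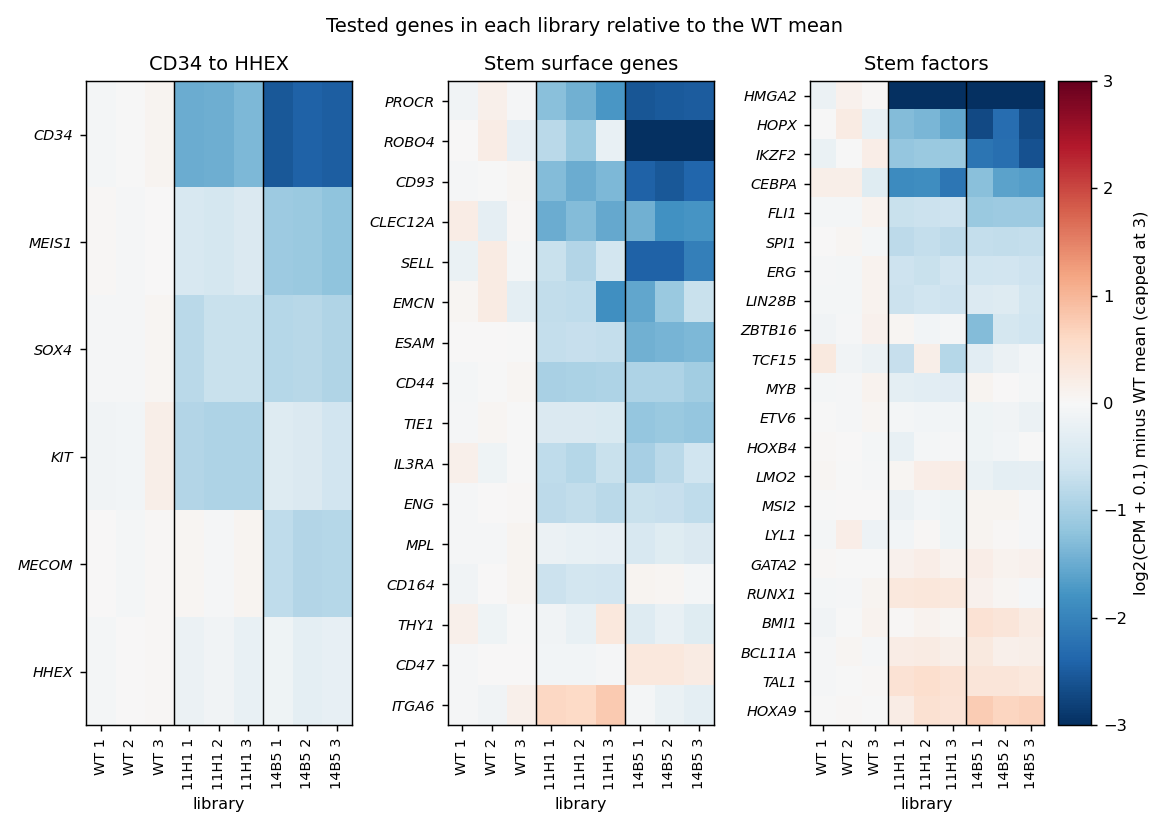
log2(CPM + 0.1) of tested genes minus their WT mean, by library, with colours capped at 3. CD34 to HHEX are on the left, surface genes in the middle and stem factors on the right; most surface genes are blue in all 6 KO libraries, while the factors run from HMGA2, far below WT, to HOXA9 and TAL1 above it.

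The LSC17 genes, a 17-gene leukemia stemness score that contains CD34, had 15 tested members, 10 lower and 3 higher in 11H1 and 10 lower and 1 higher in 14B5 (medians −0.27 and −0.36), beside 32.8% lower and 31.8% higher of all genes in 11H1, and 28.7% and 24.9% in 14B5. MMRN1, a platelet and endothelial multimerin, was 17.2 ± 1.19 CPM in WT, 8.13 ± 0.931 in 11H1 and 1.101 ± 0.119 in 14B5. SMIM24 was 33.6 ± 1.698, 10.7 ± 0.359 and 11.03 ± 0.0802 CPM, and AKR1C3, an aldo-keto reductase, was 55.2 ± 1.79, 34.1 ± 0.507 and 36.5 ± 2.15 CPM. FAM30A was higher in 11H1 (log2FC 0.21, edgeR, adjusted p = 0.00137) and lower in 14B5 (−0.84, adjusted p = 4.66e-06). Lower in both clones were 7, CD34 among them, and higher in both was 1, beside 19.2% and 14.1% of all genes. These counts take no account of the weight or sign of a gene in the score. The score itself was not computed, so no direction of it is given. That 1, named after its values were seen, was DNMT3B (log2FC 0.62 and 0.14, edgeR, adjusted p = 2.33e-07 and 0.0313).

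Of 24 ligands, paralogs and partners of the 10 genes, 18 were tested, 8 lower and 7 higher in 11H1 and 8 lower and 4 higher in 14B5 (medians −0.16 and −0.17). Of all tested genes 32.8% were called lower and 31.8% higher in 11H1, 28.7% and 24.9% in 14B5, so the higher counts are near that background. KITLG, the ligand of KIT, stayed at or below 0.183 CPM in every library and was not tested. FLT3LG, the ligand of FLT3, was 2.36 ± 0.362 CPM in WT, 1.87 ± 0.292 in 11H1 and 2.02 ± 0.173 in 14B5, and was not called (edgeR, adjusted p = 0.103 and 0.198). PODXL2, a CD34 family sialomucin, was 5.19 ± 0.331 CPM in WT, 0.488 ± 0.0622 in 11H1 and 0.594 ± 0.0714 in 14B5. PODXL, the other CD34 relative, was lower in 14B5 (log2FC −0.28, edgeR, adjusted p = 0.00382) and not called in 11H1 (0.01, adjusted p = 0.889). CSF1R, the class III receptor related to KIT and FLT3, was 0.465 ± 0.02303 CPM in WT, 0.0792 ± 0.0369 in 11H1 and under the floor at 0 to 0.0174 CPM in 14B5.

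Around CD34, the nearest tested genes differed. MIR29B2CHG, the host lncRNA of microRNAs 1.88 kb from the CD34 body on the same strand, was 3.58 ± 0.4497 CPM in WT, 9.63 ± 0.358 in 11H1 and 3.16 ± 0.5605 in 14B5, higher in 11H1 (log2FC 1.43, edgeR, adjusted p = 2.78e-07) with −0.20 in 14B5 (adjusted p = 0.304). The lncRNA AL356275.1, 47.9 kb away on the opposite strand, was 2.57 ± 0.151, 1.06 ± 0.109 and 0.541 ± 0.04 CPM, with log2FC of −1.28 and −2.25 (edgeR, adjusted p = 1.82e-05 and 1.12e-06). The 10 tested genes within 1 Mb of CD34 had median log2FC of −0.44 and −0.38, and those within 5 Mb −0.15 and −0.04.

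Beside KIT on chromosome 4 lies KDR, the VEGF receptor and a relative of KIT among receptor tyrosine kinases, which was 11.7 to 13.05 CPM in WT, 0.517 to 1.005 in 11H1 and 0 to 0.0836 in 14B5 (edgeR, adjusted p = 2.01e-09 and 7.83e-09). In 14B5 KDR had 0, 5 and 2 counts, so no fold is given. The other neighbour, CHIC2, was not called (log2FC −0.06 and 0.26, edgeR, adjusted p = 0.681 and 0.0707), and the 8 genes within 1 Mb had medians of −0.16 and 0.08.

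SOX4 stood beside the lncRNA CASC15, which was not called in 11H1 (log2FC −0.16, edgeR, adjusted p = 0.429) and was lower in 14B5 (−1.81, adjusted p = 2.18e-05), and CDKAL1 on the other side was not called in either clone (adjusted p = 0.237 and 0.435). For MECOM, MYNN on the far side of its start was higher (log2FC 0.16, adjusted p = 0.0126, in 11H1, and 0.41, adjusted p = 4.15e-05, in 14B5), in 14B5 opposite to MECOM itself. ACTRT3, nearer to that start, was 0.219 to 0.366 CPM in WT, 0 to 0.122 in 11H1 and 0 to 0.0226 in 14B5, and was tested in 14B5 (adjusted p = 3.27e-04) but not in 11H1. GOLIM4 on the other side was higher (0.36 and 0.20, adjusted p = 6.49e-05 and 0.00879). The 2 neighbours of MEIS1, SPRED2 and ETAA1, had log2FC of 0.13 and 0.06 in 11H1 and 0.00 and 0.22 in 14B5, the last past the threshold (adjusted p = 0.0136). EXOC6 beside HHEX was not called in 11H1 (adjusted p = 0.0812) and was higher in 14B5 (log2FC 0.21, adjusted p = 0.00762). The pseudogene EIF2S2P3 on its other side was not called (adjusted p = 0.249 and 0.646).

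The untested genes also had tested neighbours. TAPT1 beside PROM1 had log2FC of 0.23 in 11H1 (edgeR, adjusted p = 0.00942) and 0.15 in 14B5 (adjusted p = 0.0862). POLR1D and PAN3-AS1, on the sides of FLT3, had log2FC of −0.19 and 0.32 in 11H1 (adjusted p = 0.00195 and 0.243) and 0.03 and −0.49 in 14B5 (adjusted p = 0.584 and 0.0367). Around HLF, MMD was lower in both clones (−0.66 and −0.33, adjusted p = 1.93e-04 and 0.0105), and STXBP4 was not called (adjusted p = 0.0672 and 0.352). Tested genes lay on at least 1 side of each gene that was at or near 0.

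**Figure D4:**
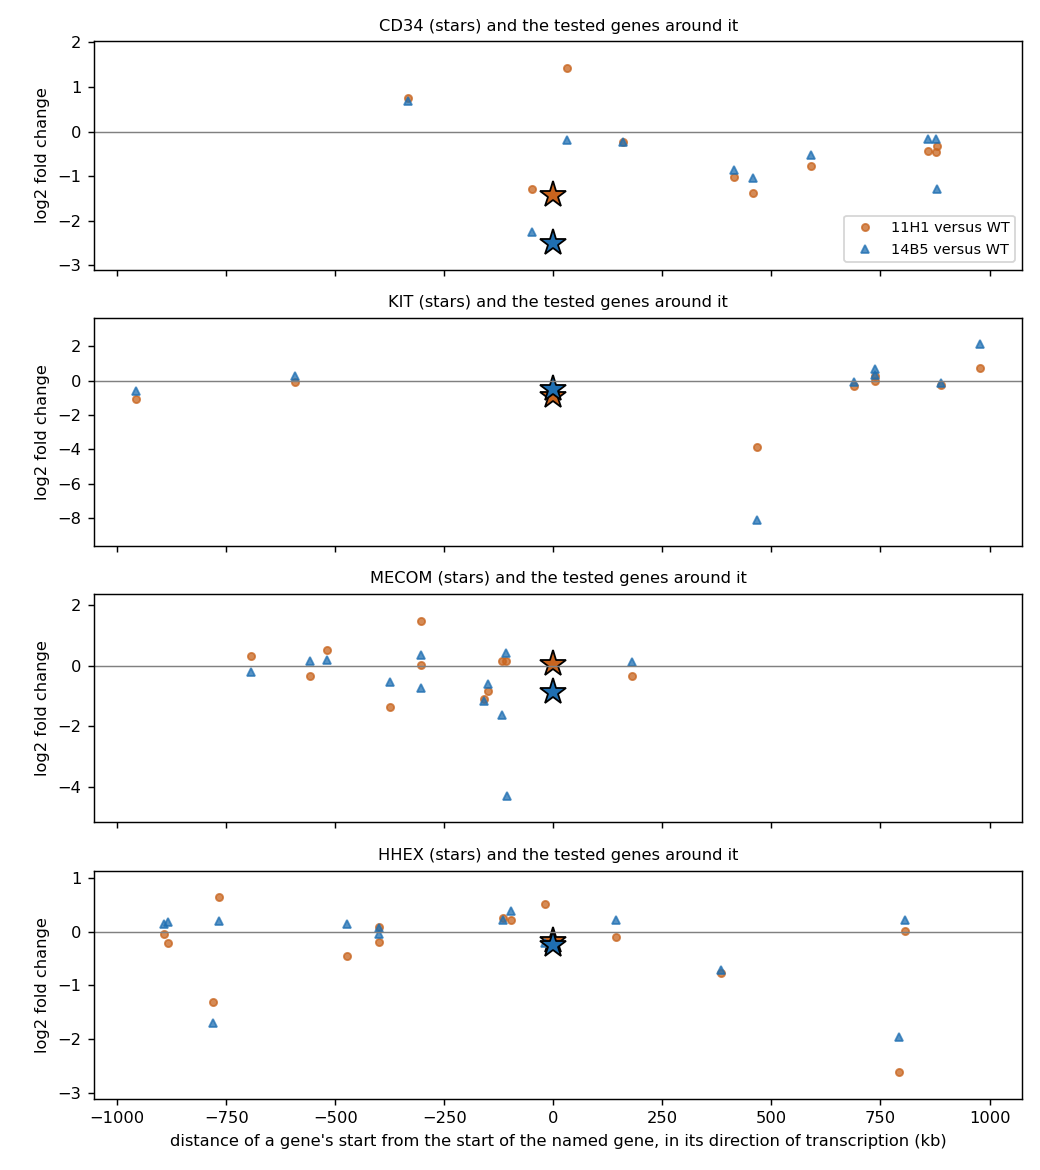
Fitted log2 fold change of CD34, KIT, MECOM and HHEX (stars) and of tested genes within 1 Mb, by distance of their starts (kb, in the direction of transcription of the named gene), for 11H1 (circles) and 14B5 (triangles). CD34 lies below all its neighbours, KDR lies far below KIT, and fits of genes near 0 in a clone, such as KDR in 14B5, give no measure of size.

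Markers of the lineages that SET2 cells can express moved in these libraries too. The megakaryocyte list (11 genes, 10 tested) was lower in 9 genes in 11H1 and 10 in 14B5, beside 32.8% and 28.7% of all tested genes. Its median log2FC was −1.33 and −2.57, a larger fall than the −0.60 and −0.87 of the 6 tested stem and progenitor genes. Its summed level was 1304 to 1323 CPM in WT, 827 to 853 in 11H1 and 743 to 758 in 14B5. ITGA2B, the defining integrin, made up most of that sum, at 919 ± 8.23 CPM in WT, 651 ± 13.7 in 11H1 and 605 ± 14.6 in 14B5. PF4, a platelet granule chemokine, was 0.509 ± 0.0489 CPM in WT and had no counts in either clone, and PPBP, another, was 0.461 to 0.793 CPM in WT, 0 to 0.0917 in 11H1 and 0 to 0.0167 in 14B5. GP9, a subunit of the von Willebrand factor receptor, was 22.2 ± 2.11, 4.27 ± 0.527 and 0.804 ± 0.216 CPM in the same order. ITGB3, the partner of ITGA2B, was 54.8 ± 5.83, 20.3 ± 0.916 and 5.77 ± 0.861 CPM. VWF was at most 0.121 CPM.

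The erythroid list (11 genes, all tested) had 5 lower and 5 higher in 11H1 and 3 of each in 14B5, near the background in 14B5 of 28.7% lower and 24.9% higher (32.8% and 31.8% in 11H1). Its median log2FC was 0.01 in 11H1 and 0.07 in 14B5. Its sum, 13234 to 15095, 12431 to 13495 and 14637 to 16148 CPM, was mostly HBG2, a fetal globin at 11294 to 12984 CPM in WT, 9917 to 10842 in 11H1 and 12436 to 14054 in 14B5. SLC4A1, the red cell anion exchanger, was higher in both clones (11.3 ± 1.06, 55.3 ± 1.98 and 38.2 ± 1.001 CPM in WT, 11H1 and 14B5), as was EPOR, the erythropoietin receptor (49.5 ± 3.76, 102 ± 4.96 and 95.6 ± 6.54 CPM), whereas HBZ, the zeta globin, was lower (51.9 ± 4.75, 18.1 ± 1.602 and 3.32 ± 0.239 CPM). HBE1, an embryonic globin, was higher in 11H1 (log2FC 0.38) and lower in 14B5 (−0.47), and KLF1, the erythroid factor, was the reverse (−0.28 and 0.26), all past the edgeR threshold.

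The myelomonocytic list (9 genes) had 5 lower and none higher of 6 tested in 11H1, and 5 lower and 3 higher of 8 tested in 14B5. Over all tested genes 32.8% were lower and 31.8% higher in 11H1, 28.7% and 24.9% in 14B5. The median log2FC of the list was −0.98 and −1.03. Sums were 266 to 273, 130 to 138 and 134 to 149 CPM. Most of each was LYZ, at 196 ± 1.73, 104 ± 3.89 and 117 ± 6.09 CPM in WT, 11H1 and 14B5. MPO, the granule peroxidase, was 1.29 ± 0.189, 0.608 ± 0.0899 and 0.161 ± 0.012 CPM, ITGAM, an integrin of myeloid cells, 68.8 ± 2.99, 25.9 ± 0.9996 and 21.8 ± 1.605 CPM, and CSF3R, the G-CSF receptor, 2.67 ± 0.138, 1.601 ± 0.447 and 1.09 ± 0.117 CPM in WT, 11H1 and 14B5. The 3 that were higher in 14B5, named after their values were seen, are granule protein genes like MPO: ELANE (0 to 0.0486 CPM in WT, 0.0304 to 0.0913 in 11H1 and 0.636 to 0.993 in 14B5, edgeR, adjusted p = 2.09e-05), PRTN3 (0.0729 to 0.183, 0.0304 to 0.1100 and 0.557 to 0.736 CPM, adjusted p = 2.21e-04) and AZU1 (0.163 to 0.335, 0.213 to 0.304 and 0.542 to 0.619 CPM, adjusted p = 0.00527). The lymphoid list (9 genes, 5 tested) had 3 lower and 1 higher in 11H1 and 3 lower in 14B5. Of all tested genes 32.8% were lower and 31.8% higher in 11H1, and 28.7% were lower in 14B5. The list had median log2FC of −0.47 and −0.88, with sums of 104 to 115, 73.5 to 81.4 and 92.0 to 105 CPM. CD7 made up most of these sums, at 81.3 ± 5.72, 55.4 ± 5.24 and 84.3 ± 6.94 CPM, and DNTT had no counts. PAX5, a B cell factor, was 1.52 ± 0.102, 0.392 ± 0.167 and 0.346 ± 0.0168 CPM, CD79A, of the B cell receptor, was 22.2 ± 1.32, 16.04 ± 0.141 and 12.2 ± 1.04 CPM, and CD3D was higher in 11H1 (log2FC 1.86) and lower in 14B5 (−1.28). The part of these markers in the levels of CD34 and the other members was not tested.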

How the data were processed

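RNA-seq of 9 SET2 libraries (WT, DYRK1A KO clones 11H1 and 14B5, 3 each) was analysed from a table of expected counts per gene that the authors deposited. Per the labels, STAR 2.7.9a, Picard and RSEM were used on GRCh38, and the annotation release is not given in the sources used here. The labels name a SMARTER kit and the study's methods a stranded TruSeq kit, so strand use in counting is open. The 92 spike-in rows held no counts, and 45 rows for chromosome Y pseudoautosomal copies were left out of the descriptions.

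Counts were rounded, filtered with filterByExpr, scaled with TMM and tested with edgeR 4.0.16 (R 4.3.3, quasi-likelihood F test, Benjamini-Hochberg adjusted p under 0.05, all tested genes). Values are CPM on TMM-scaled library sizes; a pooled KO fit used all 6 KO libraries of the table against 3, which is more KO libraries than the study counts in its own pooled comparison. SE is the size of the log2FC over the square root of F. Exon lengths and positions are from GENCODE v29 on GRCh38 (96.6% of genes placed). The floor of 3 counts covers counting error only. Scripts were tested on simulated data. Replicates differed beyond sampling noise, so none was a copy. Same-numbered libraries of different groups had correlations of −0.145 to 0.0581 of their deviations, and other pairs −0.111 to 0.141. No pairing by number was seen, though this check over all genes cannot exclude a shared batch.

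Members and gene lists were chosen with earlier results of these data known. Named genes were all 10 members, up to 4 genes per list with the largest change past the threshold in the same direction in both clones and up to 2 in opposite directions, the 3 nearest profiles and the nearest tested genes on each side. KITLG, FLT3LG, PODXL, TEK, VWF, ITGA2B, HBG2, LYZ, CD7 and DNTT were named outside this rule, after values were seen. They are ligands, relatives, defining markers or main parts of a sum. Genes marked above as named after their values were seen are also outside it. Values of some genes that this rule names are not reported here, though list counts and medians include them. DESeq2 1.42.0, limma 3.58.1 (voom), other filters and leaving out each library were alternatives.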

Additional observations from a re-analysis of the deposited data

Results flagged for a closer look

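Differences between the clones, tested directly as 11H1 minus 14B5 with edgeR, drew attention for 5 of the 6 tested genes. They were 1.06 for CD34 (adjusted p = 2.12e-08), 0.88 for MECOM (adjusted p = 3.72e-07), 0.67 for MEIS1 (adjusted p = 6.18e-05), −0.45 for KIT (adjusted p = 1.12e-05) and 0.15 for SOX4 (adjusted p = 0.0172), on the log2 scale. In the same comparison 63.7% of all tested genes were called. KIT was lower in 11H1 while the other 4 were lower in 14B5, and each clone is 1 founder, so the clone and its response cannot be told apart.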

How the results depend on the processing

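Of 402 log2FC values of the 6 genes under the alternatives (DESeq2 size factors or Wald test, limma-voom, no filter, a minimum of 10 counts per library, a restriction to protein-coding genes, 3 groups in 1 fit, no mitochondrially encoded genes, each library left out, a replicate block, and a log2FC tested beyond 0.5), 384 kept direction and side of the threshold, 17 fell below it, 1 rose past it and none reversed. Testing for a log2FC beyond 0.5 left 3 genes called in 11H1 versus WT, 4 in 14B5 versus WT (without KIT and HHEX), 2 in 11H1 versus 14B5 and 2 in KO versus WT, as this test asks for a larger change. The pooled HHEX call was lost with no filter (log2FC −0.19, edgeR, adjusted p = 0.0653), without WT replicate 2 (adjusted p = 0.0984) or WT replicate 3 (adjusted p = 0.0930), and with a replicate block (log2FC −0.20, adjusted p = 0.0764). The cause was not tested. The replicate block changed no other call on these genes. Genes under 3 counts in every library of a comparison cannot show a change at this depth.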
